A study of Homo sapiens with 4 samples.

Results

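Bile acids are made from cholesterol in hepatocytes, secreted into bile and taken back up from portal blood. CYP7A1 catalyses the rate-limiting step of their classic synthesis pathway. FXR, the nuclear receptor encoded by NR1H4, senses bile acids, raises the repressor SHP (NR0B2) and the bile salt export pump BSEP (ABCB11), and through SHP lowers CYP7A1. NTCP (SLC10A1), OATP1B3 (SLCO1B3) and OATP1B1 (SLCO1B1) take bile acids and other organic anions up from blood, MRP2 (ABCC2) exports conjugates into bile, and FGFR4 is the receptor through which the gut hormone FGF19 represses CYP7A1. The chromatin around these 9 genes is described here through a list of H3K4me1 peaks. H3K4me1, the monomethylated form of lysine 4 of histone H3, marks enhancers and the flanks of promoters.

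A locus was the hg19 span of a gene, rounded to 1 kb, with 20 kb added on each side, and every distinct peak overlapping it was taken. The 9 loci held 68 of the 160601 distinct peaks of the list, and no peak fell in more than 1 locus. The rule that assigns peaks to a locus uses positions only, and the genes were chosen with earlier results of these data known. The peaks came from HepG2, a human liver tumour line grown in high-glucose medium, after chromatin immunoprecipitation for H3K4me1 in LSD2-KD cells, given siRNA against LSD2, and in control cells, whose siRNA the file header names GL3. LSD2 (gene KDM1B) removes methyl groups from H3K4. The 4 samples are these 2 libraries and an input library from each condition, so each of the 4 groups holds 1 library. As a model HepG2 is limited, because this line is known to carry little of several uptake transporters of primary hepatocytes, NTCP among them.

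A peak is a region where the authors' caller, MACS, found more H3K4me1 reads in the LSD2-KD library than in the control library. The list gives a position and no height, fold or p-value, so the density, width and place of peaks are the measurements. The numbers of reads were not known, so the depth is unknown, and without replicates no test between conditions was possible. Where no peak is listed, H3K4me1 may be the same, lower or covered by too few reads in the LSD2-KD library. Regions higher in the control library were not analysed here. Intervals are exact Poisson intervals (95%) for densities and Wilson intervals (95%) for shares, and both cover counting error only. The list holds no measure of LSD2 itself, so the knockdown was not checked here. Densities of the whole list are per Mb outside peak-free gaps longer than 1 Mb.

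Promoter sequences are shown for the gene whose 5′ end lay closest to a peak and for the pair of related uptake genes whose 5′ ends lay farther from any peak. They are RefSeq sequences of build GRCh38.p14, from 250 bases before to 50 after the annotated start, and were found for 7 of the 9 genes. They were not placed on the hg19 peak positions. In ABCB11 the capitals mark GNNCANTGNNC, a relaxed form of the inverted repeat with a 1-base spacer that FXR is known to bind. In the other promoters they mark GTTAAT, or its reverse complement, a half-site of the liver factor HNF1.
ABCB11: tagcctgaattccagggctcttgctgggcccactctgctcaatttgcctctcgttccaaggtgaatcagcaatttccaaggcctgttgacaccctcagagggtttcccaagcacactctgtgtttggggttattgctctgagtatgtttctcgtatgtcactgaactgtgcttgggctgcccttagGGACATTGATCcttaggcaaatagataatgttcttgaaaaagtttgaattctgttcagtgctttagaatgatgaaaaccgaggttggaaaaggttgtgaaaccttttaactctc
SLCO1B3: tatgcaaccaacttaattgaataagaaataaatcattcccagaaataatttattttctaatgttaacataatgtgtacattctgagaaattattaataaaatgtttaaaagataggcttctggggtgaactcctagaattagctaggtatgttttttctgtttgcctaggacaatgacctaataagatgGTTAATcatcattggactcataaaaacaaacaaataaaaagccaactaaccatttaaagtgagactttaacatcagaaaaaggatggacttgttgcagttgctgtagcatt
SLCO1B1: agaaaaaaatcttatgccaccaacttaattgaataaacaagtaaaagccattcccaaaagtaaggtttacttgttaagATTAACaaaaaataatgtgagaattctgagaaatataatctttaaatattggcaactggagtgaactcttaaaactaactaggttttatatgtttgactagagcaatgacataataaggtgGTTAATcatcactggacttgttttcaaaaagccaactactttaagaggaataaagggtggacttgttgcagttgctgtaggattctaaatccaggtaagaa

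Both motifs were searched on both strands of all 35116 promoters of the table, after the sequences had been seen. So was AGGTCA, a nuclear receptor half-site. The inverted repeat was present in 7.71% of the promoters and in 2 of the 7 genes found, ABCB11 and SLCO1B3. GTTAAT was present in 6.88% of them and in 3 of the 7, NR1H4, SLCO1B3 and SLCO1B1, which are a dense locus and the sparse pair. The NR1H4 sequence of the table starts inside the gene and is not shown. AGGTCA was present in 13.8% of all promoters and in 3 of the 7 genes, NR1H4, SLC10A1 and SLCO1B3. The SLCO1B3 promoter also holds a match to the inverted repeat, not capitalised, which overlaps a nuclear receptor half-site (AGGTCA, read on the other strand). Between SLCO1B3 and SLCO1B1, 216 of 261 aligned promoter bases were identical (82.8%). The alignment also held 49 gap bases, which this share leaves out. A match describes letters and does not show binding.

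The 9 loci together carried more peaks per Mb than the list as a whole, and the excess came from a few of them. The 68 peaks on 896 kb gave 75.9 peaks per Mb (95% interval 58.9 to 96.2), against 56.2 per Mb (55.9 to 56.4) over the whole list. The ratio was 1.35. NR1H4, ABCB11 and ABCC2 held 49 of the 68 peaks (72.1%) on 43.5% of the length. With NR1H4 and ABCB11 left out, a choice made after their counts were seen, the other loci had 48.7 peaks per Mb, below the whole list.

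With the 20 kb on each side, 5 loci were denser than the whole list and 4 were sparser. Each also lay on that side of the median of all windows of its own length. About as many windows lie above a median as below it, so 5 against 4 is near the background. NR1H4 had 145 peaks per Mb, ABCB11 128, CYP7A1 118, ABCC2 100.0 and NR0B2 68.2, all above the whole list. SLCO1B3 had 34.0 peaks per Mb, SLCO1B1 20.1, FGFR4 18.9 and SLC10A1 16.1, all below it. In the gene span alone CYP7A1 had 0 peaks, below the list, and FGFR4 had 1 peak on 13 kb, or 76.9 per Mb, above it. The other 7 genes kept their side. The interval lay above the density of the whole list for NR1H4 (87.3 to 226) and ABCB11 (76.8 to 199), and below it for none. Chromosome 2 as a whole had 76.4 peaks per Mb, next to the lower limit for ABCB11. Chromosome 12, with NR1H4, had 57.0. Neighbours in the order of density had overlapping intervals. A grouping by role was not among the planned results. In it, the 3 uptake genes had 9 peaks on 358 kb, or 25.1 per Mb (11.5 to 47.7). The 2 export genes had 30 peaks on 259 kb, or 116 per Mb (78.2 to 165). FXR and SHP together had 22 peaks on 175 kb, or 126 per Mb (78.8 to 190). CYP7A1 and FGFR4 formed roles of 1 gene each. SLCO1B3 and SLCO1B1 lie in the same stretch of chromosome 12, so their low counts are not separate. Of the further pathway genes described below, the exporter genes ABCC4, ABCC3, SLC51A and SLC51B had 90.1, 61.9, 52.6 and 20.8 per Mb. The uptake gene SLC10A2 had 47.6 per Mb (9.82 to 139), above the 3 uptake genes together. A link of density to role was not tested.

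**Figure D1:**
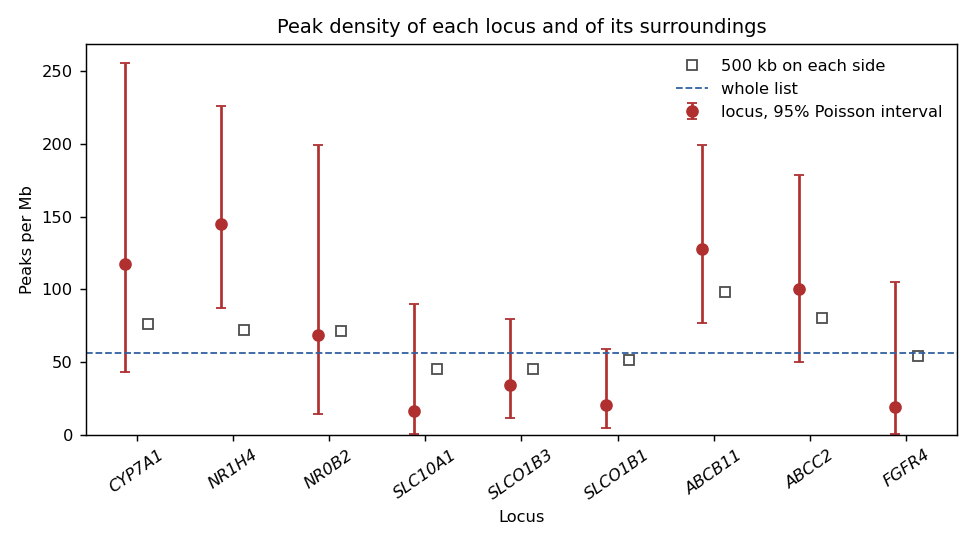
Peaks per Mb (y axis) in each of the 9 loci (x axis), with 95% Poisson intervals in red, the density of 500 kb on each side of the locus as grey squares and the whole list (56.2 per Mb) as a dashed line. NR1H4 and ABCB11 have intervals above the dashed line, and the 3 uptake genes and FGFR4 lie below it.

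The surroundings of each locus lay on the same side of the whole list as the locus, but did not follow the order of the loci. How often this holds for windows in general was not counted. Over 500 kb on each side, ABCB11 had 98 peaks, ABCC2 80, CYP7A1 76, NR1H4 72, NR0B2 71, FGFR4 54, SLCO1B1 51, and SLCO1B3 and SLC10A1 45 each. All 5 denser loci had surroundings above the whole list, and all 4 sparser loci had surroundings below it. NR1H4 was 2.01 times as dense as its surroundings, CYP7A1 1.55, ABCB11 1.30 and ABCC2 1.25. The ratio was 0.960 for NR0B2, 0.756 for SLCO1B3, 0.395 for SLCO1B1, 0.358 for SLC10A1 and 0.349 for FGFR4. The part of regional density or of copy number in the counts was not tested.

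Set against all tiled windows of its own length, the NR1H4 locus held more peaks than 98.6% of 21804 windows. The ABCB11 locus held more than 97.1% of its windows, CYP7A1 88.1%, ABCC2 87.3% and NR0B2 57.6%. At the other end, 86.1% of windows held more peaks than the SLCO1B1 locus, 77.3% more than SLC10A1, 71.6% more than FGFR4 and 70.1% more than SLCO1B3. No locus thus lay outside the range of windows elsewhere. Over 5 kb bins, 52 of 175 bins in the loci held a peak (29.7%, 23.4 to 36.9%), against 24.8% of all bins of the list. That interval includes the share of all bins.

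**Figure D2:**
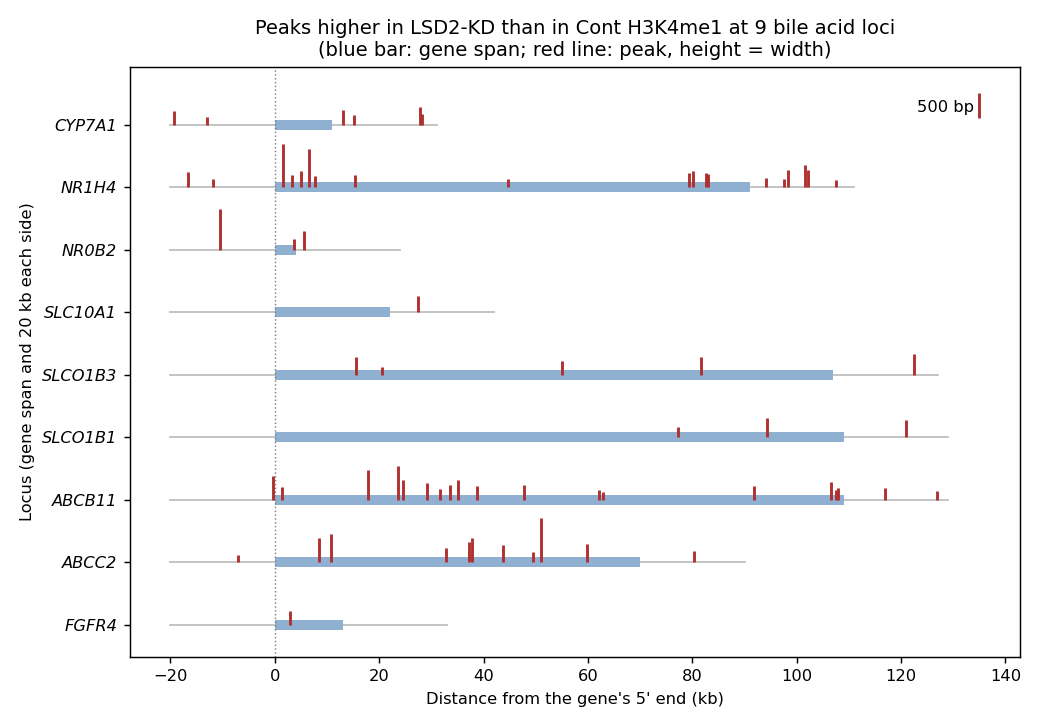
Peaks of the 9 loci drawn by distance from the 5′ end of each gene (x axis, kb, 5′ end at 0), with the gene span as a blue bar, the 20 kb on each side as a grey line and each peak as a red line whose height is its width. Peaks gather near the 5′ end and around the 3′ end of NR1H4 and across ABCB11, while the SLC10A1 and CYP7A1 spans hold none.

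CYP7A1 had no peak in its own span. All 6 peaks of the locus (chromosome 8, 59382001 to 59433000) lay in the flanks, 4 downstream and 2 upstream. They were 158 to 361 bp wide, with a median of 242.5 bp. The gene lay within a peak-free stretch of 25.8 kb, longer than 78.8% of the gaps in the list. By the rounded span the peak nearest to the 5′ end, 158 bp wide, was 12.9 kb upstream. A peak of 286 bp on the downstream side lay about as far away, with the middles of both at 13.0 kb. Which of them is nearer cannot be told. The other upstream peak had its middle 19.3 kb from the 5′ end. The widest, 361 bp, lay on the downstream side, from 59384978 to 59385338.

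NR1H4, the gene of FXR, had 19 peaks on 131 kb (chromosome 12, 100847001 to 100978000), of which 14 lay in 3 groups of at least 3 peaks with gaps of at most 5 kb. The first group held 5 peaks from 100868181 to 100874919, with middles 1.6 to 7.8 kb inside the gene from its 5′ end. It includes both wide peaks of the locus, of 874 and 758 bp, wider than 98.4% and 97.2% of the list. The 874 bp peak was also the nearest to the 5′ end, at 1.2 kb. The next group, 4 peaks from 100946268 to 100950154, lay toward the 3′ end of the gene. The last, 5 peaks from 100961035 to 100969253, lay beyond its 3′ end. Between the first and the next group, a peak of 247 bp lay 15.4 kb into the gene and one of 164 bp 44.6 kb into it. The longest peak-free stretch of the locus, 34.5 kb, followed the 164 bp peak. The remaining 3 peaks lay in the flanks, 2 upstream and 1 downstream. GAS2L3 lies within 20 kb of NR1H4 in the RefSeq gene table, so peaks of the flank may belong to that gene.

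NR0B2, the gene of SHP, had 3 peaks on 44 kb (chromosome 1, 27217001 to 27261000). The widest, 820 bp from 27251115 to 27251934, had its middle 10.5 kb upstream of the 5′ end and was wider than 97.9% of the list. A peak of 223 bp lay at the 3′ end of the gene and was the nearest to the 5′ end, at 3.5 kb. A peak of 382 bp lay beyond the 3′ end. The longest peak-free stretch within the locus was 18.1 kb, part of a gap of 32.9 kb. NUDC overlaps NR0B2 in the gene table and GPATCH3 lies within 20 kb, so none of these peaks can be assigned to NR0B2 alone.

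ABCB11, the gene of BSEP, had 19 peaks on 149 kb (chromosome 2, 169759001 to 169908000). By the rounded spans it was the only one of the 9 genes with a peak within 1 kb of its 5′ end. With rounding to 1 kb, NR1H4, at 1.2 kb, may have such a peak too. The ABCB11 peak, 480 bp from 169888027 to 169888506, lay on the upstream side within the rounding of the span. The next, 261 bp, had its middle 1.3 kb inside the gene, so the 5′ end of the span fell between them. The group with the most peaks was 7 peaks on 15.6 kb, from 169849096 to 169864725, with middles 23.6 to 38.8 kb into the gene. It includes the widest peak of the locus, 669 bp from 169864057 to 169864725. A run of 3 peaks with gaps of at most 1 kb lay near the 3′ end, from 169779933 to 169781594, and was the only such run in the 9 loci. The longest peak-free stretch was 28.6 kb. G6PC2 lies within 20 kb of ABCB11 in the gene table, so peaks of the flank may belong to that gene. RefSeq gives ABCB11 a length of 116 kb and the span used here is 109 kb, so places measured from its ends are less certain than those of the other 8 genes, whose lengths differed by at most 2 kb.

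ABCC2, the gene of MRP2, had 11 peaks on 110 kb (chromosome 10, 101522001 to 101632000), 9 of them in the gene. The widest peak of all 9 loci lay here, 882 bp from 101592520 to 101593401, with its middle 51.0 kb into the gene. It was wider than 98.4% of the list. A group of 3 peaks of 287 to 485 bp lay 32.8 to 37.7 kb into the gene. Peaks of 495 and 565 bp lay 8.4 and 10.7 kb from the 5′ end. The nearest to the 5′ end was a peak of 151 bp at 7.0 kb upstream, narrower than all but 0.328% of the list. The longest peak-free stretch, 21.7 kb, separated the 565 bp peak from the group of 3.

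SLC10A1, the gene of NTCP, had 1 peak in its 62 kb locus (chromosome 14, 70222001 to 70284000) and none in the gene. The peak, 318 bp from 70236373 to 70236690, lay beyond the 3′ end and 27.3 kb from the 5′ end. The gene itself lay within a peak-free stretch of 73.5 kb, of which 47.3 kb were in the locus, longer than 97.2% of the gaps in the list. On the other side of the peak the next gap was 73.3 kb. SRSF5 is a neighbour within 20 kb in the gene table.

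SLCO1B3 and SLCO1B1, genes of related transporters in the same stretch of chromosome 12, had few peaks for their length. SLCO1B3 had 5 peaks on 147 kb (chromosome 12, 20943001 to 21090000), of 162 to 413 bp. Of these, 4 lay in the gene, the first of them 15.3 kb from the 5′ end. The widest, 413 bp from 21085317 to 21085729, lay beyond the 3′ end. Its longest peak-free stretch within the locus was 40.6 kb, and gaps of 44.2 kb before its first peak and 92.8 kb after its last reached beyond the locus. SLCO1B1 had 3 peaks on 149 kb (chromosome 12, 21264001 to 21413000), of 202, 384 and 341 bp in order from the 5′ end. The first was 77.3 kb into the gene, and the widest lay from 21378179 to 21378562. A peak-free stretch of 121 kb, of which 97.2 kb were in the locus, covered the first part of the gene and its upstream flank, longer than 99.3% of all gaps. The peak nearest to the 5′ end was 43.8 kb upstream, outside the locus.

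FGFR4 had 1 peak in 53 kb (chromosome 5, 176493001 to 176546000). It was 281 bp wide, from 176515759 to 176516039, and lay 2.8 kb inside the gene from the 5′ end. The gaps on its sides were 60.0 and 61.2 kb, and the longest peak-free stretch within the locus was 30.0 kb. ZNF346 is a neighbour within 20 kb in the gene table.

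The 5′ ends were near a peak about as often as positions in general. A peak lay within 1 kb of the 5′ end in 1 of the 9 genes, while 12.1% of all positions were that close to a peak. Within 2 kb it was 2 of 9 genes (ABCB11 and NR1H4) against 20.9% of positions. Within 5 kb it was 4 of 9 genes, with NR0B2 and FGFR4 added, against 41.3% of positions. Spans are rounded to 1 kb, so the NR1H4 peak, at 1.2 kb, may also lie within 1 kb. The FGFR4 span is 13.0 kb against a RefSeq length of 11.2 kb, so its peak, at 2.8 kb, may lie within 2 kb. As measured, the counts are near the background.

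Within the loci, gene spans held 44 peaks at 82.1 per Mb (59.6 to 110), and the flanks held 24 at 66.7 per Mb (42.7 to 99.2). With each gene divided into 3 equal parts, the part at the 5′ end held 19 peaks, the middle part 10 and the part at the 3′ end 15. The upstream flanks held 7 peaks on 180 kb, at 38.9 per Mb (15.6 to 80.1). The downstream flanks held 17 on the same length, at 94.4 per Mb (55.0 to 151), and 10 of these belonged to NR1H4 and CYP7A1. All these intervals overlapped.

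Peaks of the loci lay close together more often than those of the list. A neighbour within 1 kb was found for 23 of 68 peaks (33.8%, 23.7 to 45.7%), against 18.2% (18.0 to 18.4%) of all peaks. Within 5 kb it was 46 of 68 (67.6%, 55.8 to 77.6%) against 52.2% (51.9 to 52.4%). The 6 groups of at least 3 peaks with gaps of at most 5 kb lay in NR1H4, ABCB11 and ABCC2. Denser loci give closer neighbours, and the share was not set against placement at equal density.

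Peak widths in the loci were within the range of the list. The median was 286.5 bp with quartiles of 217 and 370 bp, against a median of 316 bp with quartiles of 229 and 396 bp in the whole list. Widths ran from 151 to 882 bp. A width of 420 bp or more was found in 11 of 68 peaks (16.2%, 9.28 to 26.7%), against 17.8% of all peaks. No peak reached 1 kb. By the rule of 3 (3 events over the 68 peaks, not a Wilson interval), 0 of 68 allows a share of up to 4.41%, above the 0.899% of the whole list. The 4 widest were the pair near the 5′ end of NR1H4, the one upstream of NR0B2 and the one in ABCC2.

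**Figure D3:**
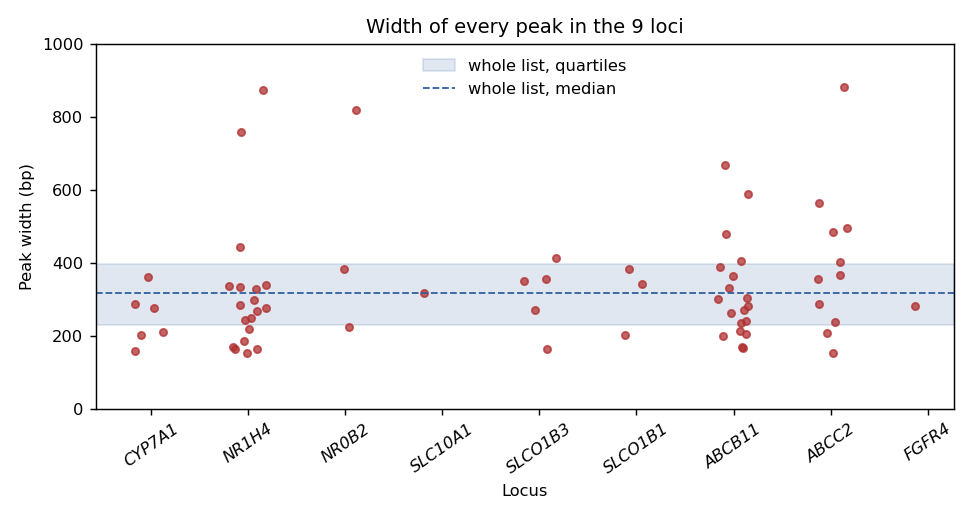
Width in bp (y axis) of each of the 68 peaks, by locus (x axis), with the quartiles (229 to 396 bp) and the median (316 bp) of the whole list as a band and a dashed line. The 4 widest peaks lie in NR1H4, NR0B2 and ABCC2, and no peak of CYP7A1, SLC10A1, SLCO1B1 or FGFR4 exceeds the band.

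Some peaks are written in several rows of the deposited list. This held for 10 of the 68 peaks (14.7%, 8.19 to 25.0%), against 10.7% of all peaks. All 5 peaks of SLCO1B3 were listed 3 times, including the one beyond its 3′ end. The other repeated peaks were listed 2 times each, in NR1H4 (2 peaks), ABCC2 (2 peaks) and ABCB11 (1 peak). In the RefSeq gene table SLCO1B3 is overlapped by the read-through gene SLCO1B3-SLCO1B7 and by LOC124902894. What a repeated row stands for was not tested.

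Other genes of the pathway had a like density and the same wide spread. Of 20 further genes of bile acid synthesis, conjugation, transport and control, 17 had an hg19 span, taken from general knowledge, within 2 kb of the RefSeq gene length and were used with the same 20 kb on each side. ABCB4, ABCG5 and ABCG8 were left out. Against 75.9 peaks per Mb in the 9 loci, these 17 loci held 120 peaks at 78.7 per Mb (65.3 to 94.2). The median of the 9 loci was 68.2 peaks per Mb and that of the 17 loci 64.1, with 56.2 over the whole list. Density was above the whole list in 5 of the 9 loci and in 10 of the 17. The share of all windows above it was not counted for the lengths of the 17.

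BAAT, which conjugates bile acids with amino acids, was the fullest with 10 peaks on 64 kb, or 156 per Mb (74.9 to 287). KLB, the coreceptor of FGFR4 for FGF19, had 11 peaks on 85 kb, or 129 per Mb (64.6 to 232), while FGFR4 itself had 1 peak. SLC27A5, a bile acid CoA ligase, SLC51B, a subunit of the basolateral exporter, and FGF19 had 1 peak each, at 18.9, 20.8 and 21.7 per Mb. CYP8B1, the sterol hydroxylase of cholic acid synthesis and a target of the same repression as CYP7A1, had 4 peaks on 44 kb. Median width was 286.5 bp in the 9 loci, against 364.5 bp in the 17. The share of peaks of 420 bp or more was 16.2% in the 9 loci, against 34.2% (26.3 to 43.0%) in the 17, where 4 of the 120 peaks were 1 kb or wider.

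**Figure D4:**
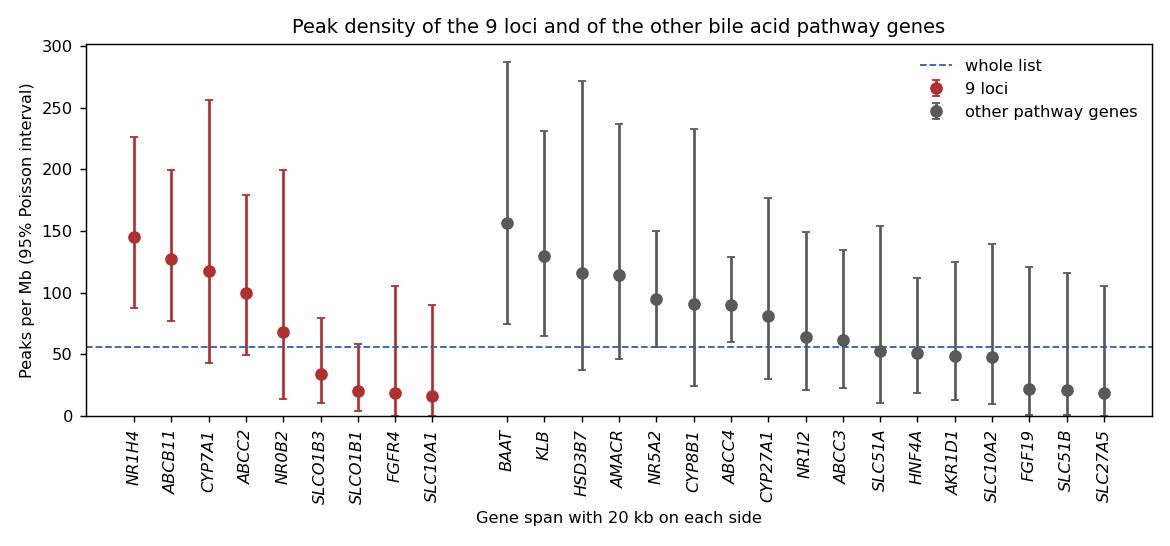
Peaks per Mb (y axis) with 95% Poisson intervals in the 9 loci (red, left) and in the 17 other bile acid pathway genes (grey, right), each ordered by density, with the whole list as a dashed line. Both sets run from under 20 per Mb to 145 and 156 per Mb and straddle the dashed line.

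The limits of the loci decided a few counts. In CYP7A1 a peak of 275 bp lay 0.61 kb inside the limit. In ABCC2 a peak of 684 bp lay 0.3 kb outside it, and in ABCB11 a peak of 243 bp lay 1.55 kb outside. FGFR4, SLC10A1 and SLCO1B1 had no peak within 20 kb beyond their limits.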

How the data were processed

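The authors deposited 1 peak list of 180505 rows with 3 columns (chromosome, start, end) and no score. Per the file header, MACS was run on H3K4me1 reads, with LSD2 siRNA as the treatment and GL3 siRNA as the control, from trimmed reads without duplicates, with a fragment length of 128 bp, a p-value cutoff of 1e-05 and an enrichment factor of 32. The header does not name the input libraries. The submitters' processing notes name BWA and hg19, without versions.

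Rows with the same position were counted as 1 peak, and positions are given from 1. Strands came from the RefSeq promoter table (GRCh38.p14), or for CYP7A1 and NR0B2 from general knowledge. Gene spans of the 17 other pathway genes came from general knowledge and were checked by chromosome and length only. Counting steps were tested on simulated peaks (Python 3.11.15, pandas 2.3.3). The members, lists and several measures were chosen with earlier results of these data known. All 9 genes are named, with the widest peak, the peak nearest to the 5′ end and the longest peak-free stretch within each locus. No genome of hg19 was used, so peak sequences are not shown.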

Additional observations from a re-analysis of the deposited data

How the results depend on the processing

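The density of 75.9 peaks per Mb over the 9 loci ranged over 62.5 to 92.6 with other extensions or none, with peaks within 1 kb merged, with every row counted and by midpoint, in each case above the whole list under the same setting. Leaving out 1 locus gave 64.1 (without NR1H4) to 87.0 (without SLCO1B1), and the median locus had 68.2. Peaks at or above the median width gave 33.5 against 28.1 over the list. Both values are lower than for all peaks by construction, but their ratio was 1.19, against 1.35 for all peaks. Leaving out NR1H4 and ABCB11, chosen after the data were seen, gave 48.7. The median count per locus, 5, was 2 with no extension, with 5 kb and for the wider peaks, and 9 with 50 kb. Bins of 2 kb gave 14.6% against 12.1% of all bins and bins of 10 kb 46.5% against 41.3%. Measured from the rounded spans, genes with a peak near the 5′ end numbered 1 within 1 kb, 2 within 2 kb and 4 within 5 kb. Median width, 286.5 bp against 316 bp over the list, was 293.5 bp with no extension and 314 bp with 50 kb. With peaks within 1 kb merged it was 323 bp against 330 bp. The narrower median of the loci thus depended on the setting. Repeated rows, flank density and the other pathway genes stayed within the counting interval under every alternative run for them. Against the whole list under the same setting, the 9 loci together changed side only without NR1H4 and ABCB11. Of single loci, CYP7A1 fell below the list with no extension (0 peaks) and for the wider peaks (19.6 against 28.1 per Mb), and FGFR4 was above it with no extension (76.9 against 56.2). No library could be left out. No paired analysis was possible because the list joins a single library of each condition. Depth is unknown, which limits what a stretch without peaks can show.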

Other observations

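The SLCO1B3 and SLCO1B1 loci lie in a longer stretch with few peaks. From 20 kb before SLCO1B3 to 20 kb after SLCO1B1, 470 kb of chromosome 12 held 11 peaks, or 23.4 per Mb (95% Poisson interval 11.7 to 41.9, counting error only), against 56.2 over the whole list. Between the gene spans, from 21070001 to 21284000, there were 4 peaks, listed 3, 3, 4 and 4 times. The first of them is the peak beyond the 3′ end of SLCO1B3, already counted in that locus. All peaks of the SLCO1B3 locus were listed 3 times, while the 3 peaks of the SLCO1B1 locus were listed once. This stretch was chosen after the counts of both loci had been seen.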
